A study of Mus musculus with 9 samples.

Results

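The genes described here are 10 markers of neutrophils, chosen by name among the 55359 genes of a count table from 9 mouse omenta: Camp, Ltf, Ngp and Lcn2 for the granules of immature cells, Ly6g, Retnlg, Mmp8 and Trem1 for mature cells, and S100a8 and S100a9 for the cytosol. Each symbol matched 1 row of the table, and all 10 passed the filter on low counts, which left 17123 genes for testing. The omentum is an apron of fat that hangs in the abdomen. C57BL/6 mice aged 7 to 10 weeks had received 500000 cells of B16-OVA, a melanoma line that expresses chicken ovalbumin, into the peritoneal cavity, and were treated on day 6. The PBS group (PBS 1, PBS 2 and PBS 3) received saline by a route that its sample titles do not give. The IP group (IP 2, IP 3 and IP 4) received ovalbumin-specific OT-I T lymphocytes, electroporated with IL-12 mRNA, into the peritoneal cavity, and the IV group (IV 1, IV 2 and IV 4) received such cells into the blood. Whole omenta were taken 18 h later, so each library holds RNA of the tumour, the fat and the cells that had entered. All 3 groups carried the tumour, and a group given T cells that lacked the IL-12 mRNA was not among them. The comparisons address how the route of delivery bears on the tissue.

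Neutrophils are made in the bone marrow, and their granule proteins are transcribed in waves. Promyelocytes make the azurophil granule proteases, myelocytes and metamyelocytes make the proteins of the specific granules, and cells that have left the cell cycle turn these genes down and gain receptors for chemokines and growth factors. In the blood and in inflamed tissue, transcripts of specific granule genes therefore mark young cells released early, whereas Cxcr2, Retnlg and Ly6g mark later ones. Mmp8 was listed here with the later ones. Several of the 10 genes are not private to neutrophils: Lcn2 is also induced in epithelial cells, fat cells and macrophages, and monocytes also make S100a8, S100a9 and Trem1.

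Levels are given in CPM, the counts of a gene scaled to the size of its library. Total counts ran from 25409924 to 44626843, except for 7379798 in IV 2. IV 4 stood apart from IV 1 and IV 2: across tested genes, which are not independent replicates, its log2 CPM correlated with PBS 3 at r = 0.981, against 0.944 for IV 1 and 0.938 for IV 2. Counts of 8 pancreatic acinar genes took 1.84% of IV 1, 1.45% of IP 4 and 0.335% of IV 2, and at most 0.0153% of the other libraries. Adipocyte and mesothelial markers, which define the tissue, summed to between 84.7 and 217 CPM in all 9 libraries.

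After IP delivery 7 of the 10 markers were higher than in PBS, by 5.08 to 18.8-fold, and the other 3, Camp, Ltf and Ngp, did not pass the test. The 7 were Lcn2, Mmp8, Trem1, Retnlg, Ly6g, S100a8 and S100a9, and in each of them the 3 IP libraries lay above the 3 PBS libraries. Ly6g passed the low count filter only through IP and IV libraries, with 0 PBS libraries over it. The test was edgeR's quasi-likelihood test, with Benjamini-Hochberg adjustment over the genes tested and a threshold of 0.05. Of all genes tested 32.9% were called in this comparison, 18.7% higher and 14.2% lower, and 28.4% had IP libraries that all lay above PBS. The number of markers called was 3 without PBS 1, 3 without PBS 2 and 4 without the low count filter, and Lcn2, Mmp8 and Trem1 were the ones called in each setting that tested them. The median log2 fold change was 3.22 over the 10 markers and 0.02 over all genes tested. After IV delivery 1 of the 10, S100a8, passed the test, against 16.1% of all genes called, 10.4% higher and 5.66% lower. An unadjusted p under 0.05 was reached by 7 of the 10 markers and by 31.5% of all genes tested, and the median log2 fold change was 2.94 over the markers and 0.04 over all genes. For 3 of the 10 markers, Ngp, Retnlg and Ly6g, all IV libraries lay above PBS, as they did for 16.5% of all genes tested. In bulk tissue, fewer cells of a type and less RNA per cell cannot be told apart.

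**Figure D1:**
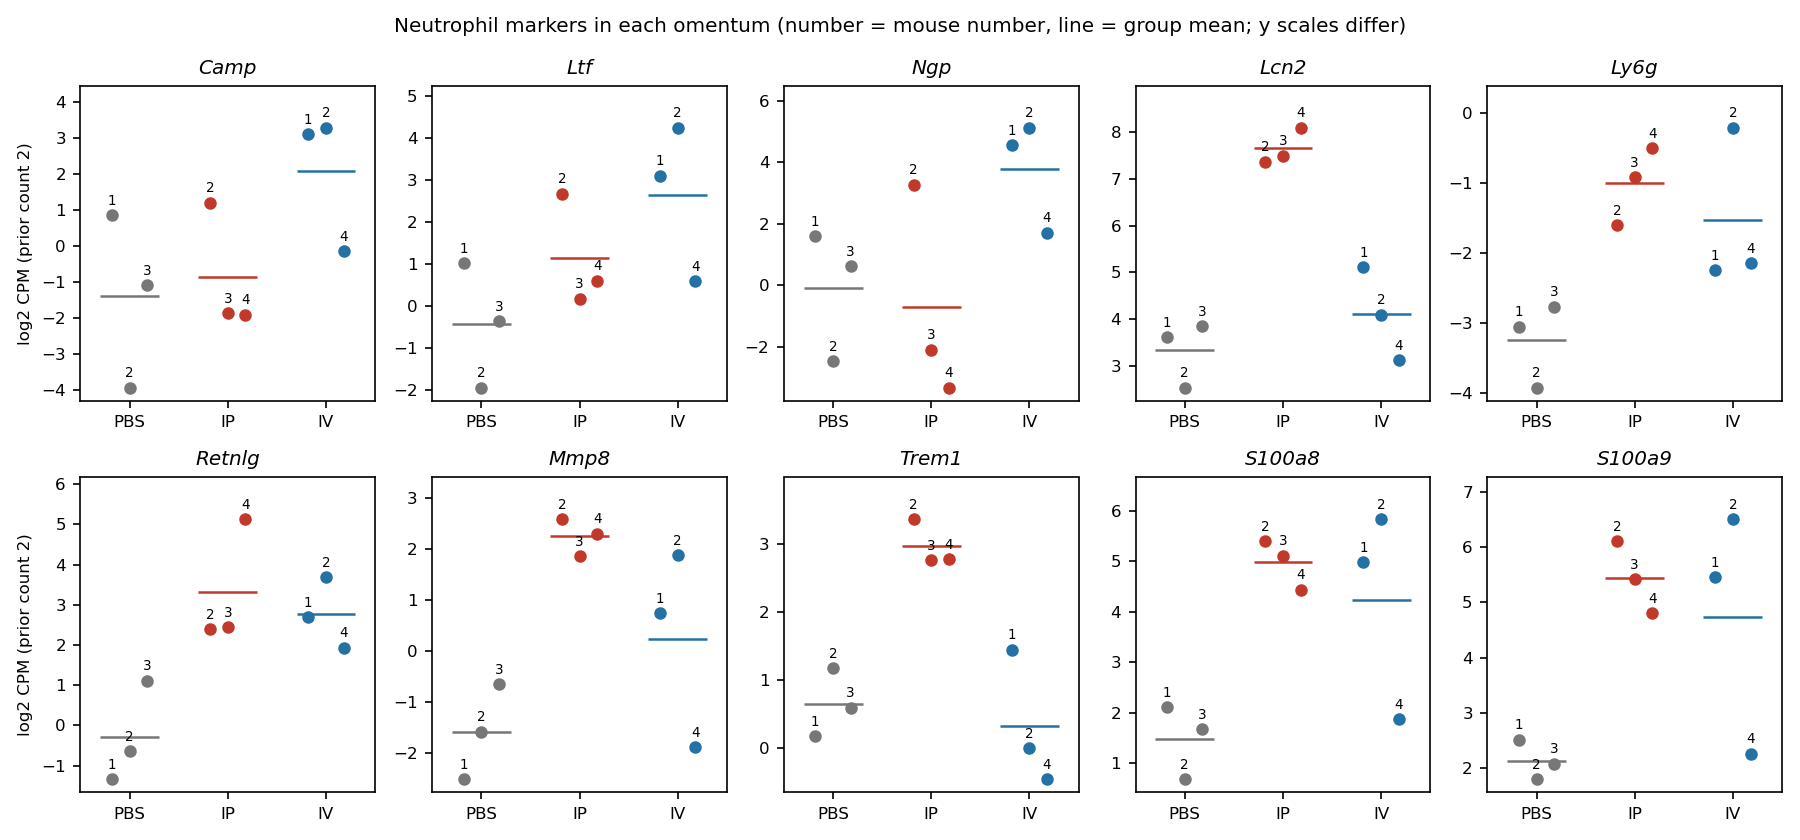
The level of each of the 10 markers in the 9 omenta, as log2 CPM with a prior count of 2. Each point is 1 library, labelled with its mouse number, and the line is the group mean. The 3 IP libraries sit above all others for Lcn2 and Trem1, while Camp, Ltf and Ngp are high in IV 1 and IV 2 and low in IP 3 and IP 4.

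Camp, Ltf and Ngp lie within the same stretch of chromosome 9 in the mouse, and with Lcn2 they encode proteins of the specific granules. Camp encodes cathelicidin, an antimicrobial peptide precursor, Ltf encodes the iron-binding protein lactoferrin, and Ngp encodes neutrophilic granule protein. Lcn2 encodes lipocalin 2, which captures bacterial siderophores. The 250 bases before the annotated start of these 4 genes are shown because the 4 genes share a granule but did not share a pattern in the omentum. They are the RefSeq sequences of GRCm38.p6, read 5′ to 3′ on the strand of the gene: chr9:109849457-109849706 for Camp on the minus strand, chr9:111019042-111019291 for Ltf and chr9:110419558-110419807 for Ngp on the plus strand, and chr2:32387740-32387989 for Lcn2 on the minus strand. Capitals mark matches, on either strand, to the C/EBP core TTGCNNAA and, in Lcn2, the PU.1 core GAGGAAG.
Camp: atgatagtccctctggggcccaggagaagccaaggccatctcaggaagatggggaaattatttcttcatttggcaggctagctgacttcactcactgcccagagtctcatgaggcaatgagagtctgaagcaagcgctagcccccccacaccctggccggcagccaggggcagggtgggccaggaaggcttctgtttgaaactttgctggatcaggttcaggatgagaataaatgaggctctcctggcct
Ltf: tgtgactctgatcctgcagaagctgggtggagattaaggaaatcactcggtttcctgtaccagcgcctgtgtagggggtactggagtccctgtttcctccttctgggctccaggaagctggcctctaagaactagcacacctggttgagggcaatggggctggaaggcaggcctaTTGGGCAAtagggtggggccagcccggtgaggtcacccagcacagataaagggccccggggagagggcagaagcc
Ngp: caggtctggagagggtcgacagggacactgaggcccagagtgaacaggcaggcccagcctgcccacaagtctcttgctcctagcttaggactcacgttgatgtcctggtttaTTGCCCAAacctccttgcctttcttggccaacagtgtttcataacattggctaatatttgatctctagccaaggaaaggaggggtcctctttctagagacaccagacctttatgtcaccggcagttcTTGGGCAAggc
Lcn2: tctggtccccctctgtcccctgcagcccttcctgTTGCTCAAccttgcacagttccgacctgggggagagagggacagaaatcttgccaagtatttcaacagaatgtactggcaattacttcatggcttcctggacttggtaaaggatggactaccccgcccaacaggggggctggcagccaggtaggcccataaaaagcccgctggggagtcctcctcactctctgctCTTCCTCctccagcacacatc
C/EBP proteins and PU.1 are transcription factors of myeloid cells. In Ltf the C/EBP match began 75 bases before the start, in Ngp the matches began 138 and 11 bases before it, and in Lcn2 the match began 216 bases before it. The Camp stretch held no match to these letters. Over windows of 300 bases (250 before and 50 after the start), the C/EBP core was present in 10.8% of 32851 RefSeq mouse promoters and in those of 7 of the 10 markers: Ltf, Ngp, Lcn2, Ly6g, Retnlg, Mmp8 and S100a9. The PU.1 core was present in 13.63% of promoters and in 4 markers (Lcn2, Ly6g, Mmp8 and S100a8). The STAT core TTCNNNGAA was present in 8.3% and in 1 marker (Trem1), and the kappaB form in 1.47% and in 0 of the 10. These matches describe letters only.

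Camp, Ltf and Ngp were highest in IV 1 and IV 2, were intermediate in IP 2, and had 0 to 43 counts in PBS 2, IP 3 and IP 4. None of the 3 genes was called in any comparison of the edgeR fit. Ngp stood at 2.98, 0.115 and 1.46 CPM in PBS 1, PBS 2 and PBS 3, at 9.55, 0.169 and 0.0337 CPM in IP 2, IP 3 and IP 4, and at 23.5, 34.8 and 3.20 CPM in IV 1, IV 2 and IV 4. The 3 IV libraries lay above the 3 PBS libraries, as for 16.5% of all genes tested. The IP libraries spread from below the lowest PBS library to above the highest. In counts, Ngp had 290 in IP 2, 4 in IP 3 and 1 in IP 4, although these 3 libraries were of like depth. The log2 fold change of Ngp was 3.69 ± 1.79 (SE) for IV against PBS (edgeR adjusted p = 0.216) and 1.08 ± 1.70 for IP against PBS (adjusted p = 0.679). The latter had no stable sign: it was -3.97 without IP 2.

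Camp stood at 1.75, 0 and 0.407 CPM in PBS 1, PBS 2 and PBS 3, and the count of 0 in PBS 2 allows a level of up to 0.115 CPM (3 counts, counting error only). It stood at 2.24, 0.212 and 0.202 CPM in IP 2, IP 3 and IP 4, and at 8.59, 9.74 and 0.845 CPM in IV 1, IV 2 and IV 4. IV 1 and IV 2 were thus above all PBS and IP libraries, whereas IV 4 lay inside the range of both. The log2 fold change of Camp was 3.08 ± 1.35 for IV against PBS (edgeR adjusted p = 0.158) and -2.78 ± 1.34 for IP against IV (adjusted p = 0.239). For IP against PBS it was 0.30 ± 1.35 (adjusted p = 0.89), and it was -1.81 without IP 2.

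Ltf stood at 1.97, 0.192 and 0.711 CPM in PBS 1, PBS 2 and PBS 3, at 6.32, 1.06 and 1.45 CPM in IP 2, IP 3 and IP 4, and at 8.51, 18.9 and 1.44 CPM in IV 1, IV 2 and IV 4. The groups overlapped in each pair. Its log2 fold change was 3.24 ± 1.11 for IV against PBS (edgeR adjusted p = 0.0809) and 1.60 ± 1.07 for IP against PBS (adjusted p = 0.292). Without IV 4 the IV value was 3.78 with an adjusted p of 0.0356, and by DESeq2's Wald test on the 9 libraries the adjusted p was 0.0234.

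Libraries of the same group differed widely in these 3 genes. Between IP 2 and IP 3 the ratio of the levels was 10.6 for Camp, 5.97 for Ltf and 56.4 for Ngp. The same ratio was between 0.566 and 1.67 for the other 7 markers, although Retnlg was lower in IP 2 than in IP 4, with a ratio of 0.149. Between IV 1 and IV 4 the ratio was 10.2 for Camp, 5.92 for Ltf and 7.34 for Ngp, and here S100a8 (8.75), S100a9 (9.21) and Mmp8 (7.79) had ratios of like size.

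Lcn2 had another pattern than the 3 genes with which it was listed: it was high in each IP omentum and low elsewhere. It stood at 12.3, 5.76 and 14.5 CPM in PBS 1, PBS 2 and PBS 3, at 164, 179 and 271 CPM in IP 2, IP 3 and IP 4, and at 34.5, 17.1 and 8.72 CPM in IV 1, IV 2 and IV 4. The lowest IP library lay well above the highest PBS or IV library, and IV 4 lay inside the PBS range. Lcn2 was 18.8-fold higher in IP than in PBS (log2 fold change 4.23 ± 0.54, edgeR adjusted p = 0.000349) and 10.2-fold higher in IP than in IV (3.35 ± 0.52, adjusted p = 0.00465). For IV against PBS the log2 fold change was 0.89 ± 0.49 (adjusted p = 0.255). The calls against PBS and against IV stood in each of the 18 alternative settings, with an adjusted p of at most 0.00662 and 0.0393. On the log2 scale Lcn2 exceeded the mean of Camp, Ltf and Ngp by 3.98 ± 1.44 (SD, n = 3) in PBS, 7.78 ± 2.47 in IP and 1.27 ± 1.29 in IV, so the distance between them was widest in IP and narrowest in IV.

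All 4 mature markers were called higher in IP than in PBS, but Ly6g passed the low count filter with 0 PBS libraries over it. The call stood in 10 of 16 alternative settings for Ly6g and in 14 of 18 for Retnlg. Mmp8, the gene of neutrophil collagenase, stood at 0.109, 0.269 and 0.569 CPM in PBS 1, PBS 2 and PBS 3, at 5.93, 3.56 and 4.85 CPM in IP 2, IP 3 and IP 4, and at 1.60, 3.60 and 0.205 CPM in IV 1, IV 2 and IV 4. IV 1 and IV 2 lay between PBS and most of IP, and IV 4 lay inside the PBS range. Mmp8 was 14.4-fold higher in IP than in PBS (log2 fold change 3.85 ± 0.83, edgeR adjusted p = 0.00491), and it was called in each of the 17 alternative settings that tested it. For IV against PBS the log2 fold change was 2.24 ± 0.86 (adjusted p = 0.102), and 2.87 without IV 4 (adjusted p = 0.00731). For IP against IV it was 1.61 ± 0.77 (adjusted p = 0.222).

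Trem1 encodes an activating receptor of neutrophils and monocytes. It stood at 1.07, 2.19 and 1.44 CPM in PBS 1, PBS 2 and PBS 3, at 10.2, 6.69 and 6.78 CPM in IP 2, IP 3 and IP 4, and at 2.66, 0.934 and 0.662 CPM in IV 1, IV 2 and IV 4. The IP libraries lay above all others, and PBS and IV overlapped. Trem1 was 5.08-fold higher in IP than in PBS (log2 fold change 2.35 ± 0.47, edgeR adjusted p = 0.00333) and 5.4-fold higher in IP than in IV (2.43 ± 0.49, adjusted p = 0.0114). The first of these calls stood in each of 18 alternative settings and the other in 17, since without IP 2 the adjusted p for IP against IV was 0.0572. For IV against PBS the log2 fold change was -0.09 ± 0.49 (adjusted p = 0.923), with a sign that depended on the libraries entered.

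Lcn2 and Trem1 were the 2 of the 10 markers that were called between the routes, both higher in IP. Of all genes tested 10.4% were called between the routes, 5.93% higher in IP and 4.47% lower, and 17.9% had IP libraries that all lay above IV, as did these 2 markers. This comparison is also the test of whether the effects of the 2 routes differ. The other 8 markers were not called for it, so their separate results against PBS do not show a difference between routes. Camp, Ltf and Ngp had log2 fold changes of -1.64 to -2.78 there, with standard errors of 1.03 to 1.70.

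Retnlg encodes a resistin-like protein found in mature neutrophils. It stood at 0.328, 0.576 and 2.09 CPM in PBS 1, PBS 2 and PBS 3, at 5.20, 5.38 and 35.0 CPM in IP 2, IP 3 and IP 4, and at 6.37, 12.8 and 3.74 CPM in IV 1, IV 2 and IV 4. All treated libraries lay above PBS, and IP 4 was higher than the rest. Of all genes tested 28.4% had IP libraries that all lay above PBS, and 16.5% had such IV libraries. The log2 fold change was 3.86 ± 1.01 for IP against PBS (edgeR adjusted p = 0.0181) and 2.80 ± 1.00 for IV against PBS (adjusted p = 0.093). The IP call was lost in 4 of 18 alternative settings, among them without PBS 1 (adjusted p = 0.0692) and without PBS 2 (adjusted p = 0.0872). The IV value passed in 5 of 18, among them without IP 4 (adjusted p = 0.026).

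Ly6g, the surface protein used to identify mouse neutrophils, was scarce. Its counts were 2, 0 and 4 in PBS 1, PBS 2 and PBS 3, 8, 11 and 19 in IP 2, IP 3 and IP 4, and 4, 6 and 7 in IV 1, IV 2 and IV 4. In CPM it stood at 0.263 to 0.64 in IP, at 0.146 to 0.8 in IV and at most 0.0813 in PBS. Both treated groups thus lay above PBS, as did IP for 28.4% and IV for 16.5% of all genes tested. Ly6g passed the low count filter (0.32 CPM in 3 libraries) through 2 IP libraries and IV 2, with 0 PBS libraries over it. Its log2 fold change was 3.05 ± 0.87 for IP against PBS (edgeR adjusted p = 0.0201) and 2.31 ± 0.95 for IV against PBS (adjusted p = 0.125). The IP call was lost in 6 of the 16 alternative settings that tested it, among them without PBS 1 (adjusted p = 0.0713), without PBS 2 (0.0559), without IP 3 (0.0557) and without IP 4 (0.08). Ly6g belongs to a family of related genes. Whether the counting split reads between them was not tested, so its level is uncertain.

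S100a8 and S100a9 encode the subunits of calprotectin, a calcium-binding complex that fills the neutrophil cytosol from the myelocyte stage on and that is also made by monocytes. S100a8 stood at 4.23, 1.54 and 3.13 CPM in PBS 1, PBS 2 and PBS 3, at 42.0, 34.5 and 21.6 CPM in IP 2, IP 3 and IP 4, and at 31.5, 57.0 and 3.61 CPM in IV 1, IV 2 and IV 4. S100a9 stood at 5.65, 3.42 and 4.17 CPM in the PBS libraries, at 69.1, 42.9 and 27.9 CPM in IP and at 43.7, 90.9 and 4.75 CPM in IV, each in the same order. For both genes the IP libraries lay above PBS, IV 1 and IV 2 reached the IP range, and IV 4 lay inside the PBS range.

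S100a8 was 10.9-fold higher in IP than in PBS (log2 fold change 3.44 ± 0.89, edgeR adjusted p = 0.0201) and 9.96-fold higher in IV than in PBS (3.32 ± 0.90, adjusted p = 0.043). For S100a9 the values were 10.5-fold in IP (3.40 ± 0.94, adjusted p = 0.0285) and a log2 fold change of 3.36 ± 0.95 in IV (adjusted p = 0.0521). Between the routes they were 0.13 ± 0.81 for S100a8 (adjusted p = 0.946) and 0.04 ± 0.85 for S100a9 (adjusted p = 0.986). The IP calls of this pair depended on single libraries. That of S100a8 was lost in 7 of 18 alternative settings, among them without PBS 1 (adjusted p = 0.0624), PBS 2 (0.0773), PBS 3 (0.0827) or IP 2 (0.0541). That of S100a9 was lost in 10 of 18, among them also without IP 3 (0.0588) or IV 1 (0.0519). The IV call of S100a8 stood in 4 of 18 settings and was lost when any of the libraries other than IV 4 was left out, with adjusted p values of 0.0536 to 0.131. Without IV 4 the adjusted p for IV was 0.00241 for S100a9, and 4 of the 10 markers were called.

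**Figure D2:**
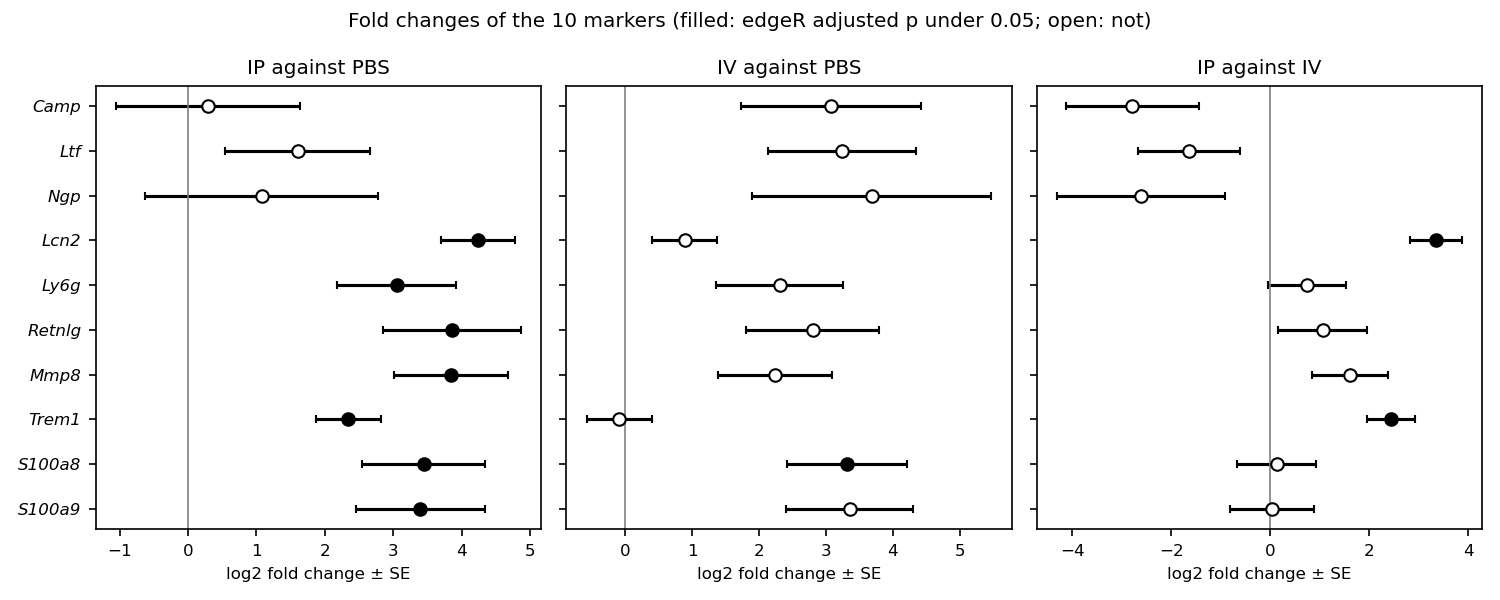
Log2 fold change of each of the 10 markers in the 3 comparisons, from the edgeR fit of 9 libraries, with bars of 1 standard error either side. Filled points passed an adjusted p of 0.05 and open points did not: 7 are filled for IP against PBS, 1 for IV against PBS and 2 for IP against IV.

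The immature granule genes were set against the mature ones by the mean log2 CPM of Camp, Ltf, Ngp and Lcn2 minus that of Ly6g, Retnlg, Mmp8 and Trem1 in each library. No test was made on this value, and its level has no meaning beyond the comparison of libraries. It was 3.46, -0.21 and 1.19 in PBS 1, PBS 2 and PBS 3, 1.94, -0.61 and -1.56 in IP 2, IP 3 and IP 4, and 3.32, 2.85 and 1.96 in IV 1, IV 2 and IV 4. The IV libraries lay above the IP libraries, IV 4 and IP 2 almost level, and PBS overlapped both. The means were 1.48 ± 1.85 (SD, n = 3) in PBS, -0.08 ± 1.81 in IP and 2.71 ± 0.69 in IV. Over other choices of genes and scaling, among them Mmp8 counted as immature, the means ran from 0.49 to 2.07 in PBS. They ran from -2.02 to 0.28 in IP and from 2.06 to 2.81 in IV.

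Since Lcn2 rose in IP with the mature markers, the balance was also taken over Camp, Ltf and Ngp alone against the 4 mature markers. It was then 2.85, -1.54 and 0.15 in PBS, 0.70, -2.79 and -3.97 in IP, and 2.93, 2.88 and 1.36 in IV, in the same order. The means were 0.49 ± 2.21 in PBS, -2.02 ± 2.43 in IP and 2.39 ± 0.90 in IV. The order of the groups was as before, with IP 2 above 0 and the other IP libraries below it. Low counts limit these values: the lowest count of Ngp in IP was 1 and that of Camp in PBS was 0. The prior count of 2 therefore bears on them, and another prior count was not tried without Lcn2. Against the S100 pair, the 3 genes stood at -2.44 ± 1.46 in PBS, -5.35 ± 1.73 in IP and -1.64 ± 0.30 in IV.

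**Figure D3:**
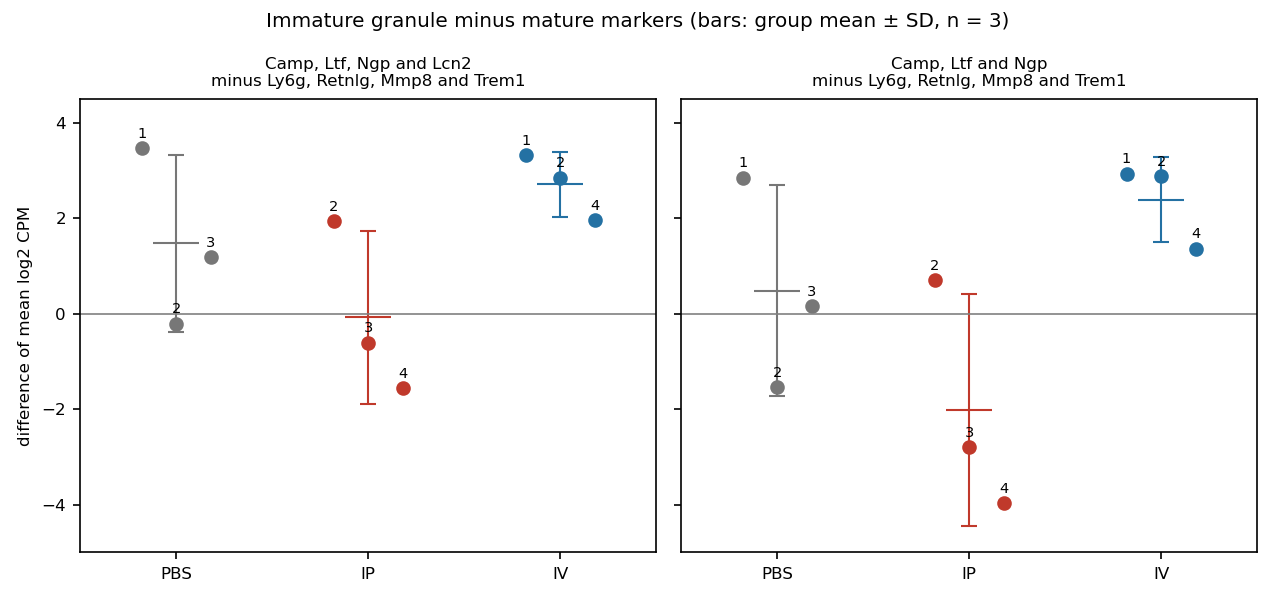
Mean log2 CPM of the immature granule genes minus that of the 4 mature markers, per library, with Lcn2 (left) and without it (right). Points are libraries labelled with their mouse number, and bars show the group mean ± SD (n = 3). In both panels the 3 IV libraries sit above the 3 IP libraries, in the left one with IV 4 at 1.96 and IP 2 at 1.94, and PBS overlaps both groups.

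The azurophil granule and progenitor genes, which are transcribed before the specific granule genes, were highest in IV 1. Mpo, the gene of myeloperoxidase, had counts of 17, 13 and 52 in PBS 1, PBS 2 and PBS 3, 88, 0 and 0 in IP 2, IP 3 and IP 4, and 227, 13 and 170 in IV 1, IV 2 and IV 4. Elane, the gene of neutrophil elastase, had 7, 7 and 13 counts in PBS, 63, 1 and 2 in IP and 154, 3 and 47 in IV. In CPM both genes lay above PBS in IP 2 and in the 3 IV libraries, least in IV 2, and they were at or near 0 in IP 3 and IP 4. For 16.5% of all genes tested the 3 IV libraries lay above PBS. The counts of 0 for Mpo allow a level of up to 0.127 CPM in IP 3 and 0.101 CPM in IP 4. Of the 5 genes tested out of 7 listed, 0 were called by edgeR for IP against PBS. There 2 had an unadjusted p under 0.05 (42.3% of all genes tested did), and 1 was called by DESeq2 and 0 by limma. For IV against PBS edgeR called 10.4% of all genes tested higher, among them 2 of the 5. These were Prtn3, the gene of proteinase 3 (log2 fold change 1.83 ± 0.49, edgeR adjusted p = 0.0304), and Ms4a3 (3.56 ± 1.02, adjusted p = 0.039). Both calls were lost without PBS 1, PBS 2, IP 3 or IV 1, among other settings. Ms4a3 had at most 0.137 CPM in PBS, under the low count filter of 0.32 CPM, and passed it only through treated libraries. The same held for Elane (at most 0.269 CPM in PBS) and Ctsg (at most 0.307 CPM). Ctsg, the gene of cathepsin G, was 0 in IP 3 and IP 4 and had 61 counts in IV 1, with a log2 fold change of -3.32 ± 1.05 for IP against IV (adjusted p = 0.0721).

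Other genes of the specific granules gave a mixed picture. Of 5 tested out of 7 listed, 2 were called higher in IP (18.7% of all genes tested were) and 1 in IV (10.4% were). Chil3, a chitinase-like protein that macrophages also make, was 10.1-fold higher in IP than in PBS (log2 fold change 3.33 ± 0.68, edgeR adjusted p = 0.00611) and had a value of 1.15 ± 0.65 in IV (adjusted p = 0.27). Pglyrp1, a peptidoglycan recognition protein, was 3.64-fold higher in IV than in PBS (1.86 ± 0.46, adjusted p = 0.0214), a call lost without PBS 1, PBS 2 or IV 2, and had a value of 1.17 ± 0.45 in IP (adjusted p = 0.0691).

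Most other genes of mature neutrophils were higher in IP. Of 14 listed and tested, 12 were higher in IP than in PBS and 0 lower. In IV 7 were higher than in PBS, and 6 were higher in IP than in IV. The shares of all genes tested that were called higher in these comparisons were 18.7%, 10.4% and 5.93%. The median log2 fold change of the list was 2.68 in IP and 0.90 in IV. Cxcr2, the receptor by which mature neutrophils follow CXC chemokines, stood at 0.300, 0.921 and 0.772 CPM in PBS 1, PBS 2 and PBS 3, at 14.2, 11.0 and 13.3 CPM in IP 2, IP 3 and IP 4, and at 0.873, 1.07 and 0.365 CPM in IV 1, IV 2 and IV 4. The IP libraries stood far above the rest, and PBS and IV overlapped. Cxcr2 was 19.4-fold higher in IP than in PBS (log2 fold change 4.28 ± 0.43, edgeR adjusted p = 5.54e-05) and 18.6-fold higher in IP than in IV (4.22 ± 0.45, adjusted p = 0.000625), with a value of 0.06 ± 0.47 for IV against PBS (adjusted p = 0.948). Asprv1, a protease gene, had a like order, with log2 fold changes of 3.80 ± 0.41 for IP against PBS (adjusted p = 8.05e-05) and 3.21 ± 0.41 for IP against IV (adjusted p = 0.0013). Csf3r, the receptor for G-CSF, rose in IP (2.51 ± 0.36, adjusted p = 0.00041) and in IV (1.30 ± 0.35, adjusted p = 0.0315), and the IV call was lost in 11 of 18 alternative settings, among them the omission of any library other than PBS 3.

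**Figure D4:**
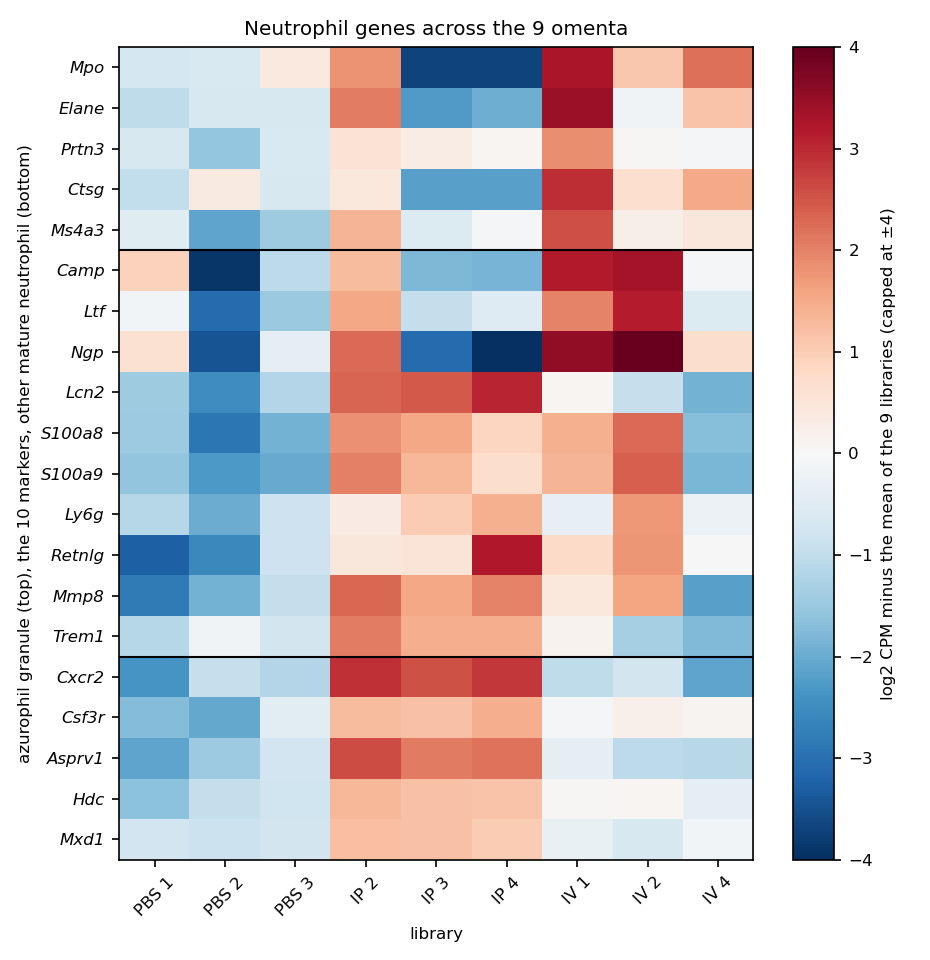
Log2 CPM of 5 azurophil granule and progenitor genes, the 10 markers and 5 other genes of mature neutrophils in the 9 libraries, each as the difference from the gene's mean, with colours capped at ±4. Red is above the gene's mean and blue below it. Camp, Ltf and Ngp are red in IV 1, IV 2 and IP 2, whereas Lcn2, Trem1 and Cxcr2 are red in all 3 IP libraries.

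Most of the listed transcription factors of granulocyte formation and recruiting signals were also higher in IP. Beside the counts that follow, 18.7% of all genes tested were called higher in IP than in PBS. The shares were 10.4% for IV above PBS and 5.93% for IP above IV. Of 6 transcription factors of granulocyte formation, 5 were higher in IP than in PBS, 2 in IV than in PBS and 3 in IP than in IV. The C/EBP proteins and PU.1 among them are factors of myeloid cells, not of neutrophils alone. Spi1, the gene of PU.1, stood at 24.7 ± 7.96 CPM (SD, n = 3) in PBS, 107 ± 7.83 in IP and 70.1 ± 14.1 in IV. The part of other myeloid cells in these results was not tested. Cebpe, which drives specific granule genes in the marrow, stood at 0.365 ± 0.151 CPM (SD, n = 3) in PBS, 3.06 ± 0.81 in IP and 0.957 ± 0.741 in IV. It was 8.06-fold higher in IP than in PBS (log2 fold change 3.01 ± 0.62, edgeR adjusted p = 0.00382). Of 8 recruitment genes tested out of 9, 6 were higher in IP than in PBS, 1 in IV than in PBS and 5 in IP than in IV, and Il17a had 0 counts in the 9 libraries. Csf3, which encodes the growth factor G-CSF, had 4, 1 and 3 counts in PBS 1, PBS 2 and PBS 3, 143, 58 and 66 in IP 2, IP 3 and IP 4, and 14, 6 and 3 in IV 1, IV 2 and IV 4. It was called for IP against PBS (5.38 ± 0.77, adjusted p = 0.000397) and for IP against IV (3.08 ± 0.69, adjusted p = 0.0174), the latter not without IP 2. Csf3 had at most 0.109 CPM in PBS, under the low count filter of 0.32 CPM, and passed it only through treated libraries.

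Of 7 genes listed as receptors of calprotectin or as partners or relatives of TREM1, 3 were called higher in IP than in PBS. The same number were called higher in IV, beside 18.7% of all genes tested in IP and 10.4% in IV. The calprotectin receptors Tlr4 and Ager were called in neither. Tlr4 had log2 fold changes of 0.14 in IP (edgeR adjusted p = 0.662) and -0.19 in IV (0.603). Ager had 0.09 in IP (0.853) and 0.58 in IV (0.251). Tyrobp, the adaptor through which TREM1 signals, rose in IP (log2 fold change 1.84 ± 0.21, edgeR adjusted p = 0.000104) and in IV (1.48 ± 0.21, adjusted p = 0.00251). Treml2 and Trem3, relatives of Trem1, were called in both as well, although the IV call of Trem3 was lost in 9 of 18 alternative settings. Treml2 had log2 fold changes of 2.83 ± 0.39 (adjusted p = 0.000308) in IP and 2.45 ± 0.39 (adjusted p = 0.00356) in IV, where Trem1 itself had -0.09.

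Markers of other cells moved beside the 10 genes. Of 8 monocyte genes, 6 were higher and 1 lower in IP than in PBS (18.7% and 14.2% of all genes tested). In IV 5 were higher (10.4% of all genes tested). The summed level of the 8 was 171 to 391 CPM in PBS, 1230 to 1290 in IP and 736 to 1050 in IV. Ly6c2, a defining monocyte gene, stood at 7.89 to 31.8 CPM in PBS, 209 to 233 in IP and 112 to 164 in IV. In IV 4 it stood at 112 CPM, above PBS, although S100a8 in that library was inside the PBS range. The part of monocytes in the S100a8, S100a9 and Trem1 results was not tested.

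Beside the counts that follow, 18.7% of all genes tested were called higher and 14.2% lower in IP than in PBS. In IV 10.4% were called higher than in PBS. Of 7 macrophage genes, 4 were higher and 1 lower in IP than in PBS, and 5 were higher in IV. Their sums were 460 to 824 CPM in PBS, 1200 to 1320 in IP and 1270 to 1720 in IV. Of 5 erythroid genes tested out of 6, 4 were higher in IP and 3 in IV, with sums of 6.88 to 9.33 CPM in PBS, 18.3 to 33.4 in IP, 43.9 in IV 1, 47.9 in IV 2 and 10.1 in IV 4. The erythroid sum was thus highest in the 2 libraries in which Camp, Ltf and Ngp were highest, while IP 2, the next in Ngp, had the lowest sum of the IP group. Of 9 eosinophil, basophil and mast cell genes tested out of 11, 6 were higher in IP and 2 in IV, with sums of 7.45 to 11.3 CPM in PBS, 30.1 to 35.3 in IP and 12.8 to 38.9 in IV. The eosinophil granule gene Prg2 rose in IV (log2 fold change 3.59 ± 0.81, edgeR adjusted p = 0.0151, not without PBS 1), with 6.54 CPM in IV 2, 2.04 in IV 1 and 0.685 in IV 4. It was not called in IP (adjusted p = 0.193). The eosinophil genes Siglecf and Ccr3 had the other order. Both were called higher in IP (log2 fold changes 3.22 and 2.86, adjusted p = 0.0211 and 0.0149) and neither in IV (adjusted p = 0.318 and 0.197). Siglecf had at most 0.224 CPM in PBS, under the low count filter, and passed it only through treated libraries. Of 2 platelet genes tested out of 5, 0 were called by edgeR in the 3 comparisons and 0 by DESeq2 or limma. An unadjusted edgeR p under 0.05 was reached by 1 for IP against PBS (42.3% of all genes tested). It was reached by 0 for IV against PBS (31.5%) and by 0 for IP against IV (25.7%). The part of blood, of macrophages and of these granulocytes in the results for the 10 markers was not tested.

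The acinar genes were not called by edgeR in any of the 3 comparisons. Against PBS, 7 of 8 in IP and 8 of 8 in IV had an unadjusted edgeR p under 0.05. Of all genes tested 42.3% did in IP and 31.5% in IV. DESeq2 called all 8 in both, and its share of all genes is not given here. Their summed level was at most 3.74 CPM in PBS, 131, 165 and 15300 CPM in IP 2, IP 3 and IP 4, and 19500, 3300 and 0.662 CPM in IV 1, IV 2 and IV 4. Within the IV group, IV 4 was lowest both in these genes and in Camp, Ltf and Ngp, whereas IP 4, high in acinar genes, had 1 count of Ngp. The part of the acinar transcripts in these results was not tested. Without IP 4 and IV 1, a setting chosen after seeing the data, edgeR called Lcn2, Mmp8, Trem1, Retnlg and S100a8 for IP against PBS. It did not call Ly6g (adjusted p = 0.0785) or S100a9 (adjusted p = 0.054) there. That setting kept IP 2 and IP 3, whose acinar sums also lay above PBS.

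Genes with a pattern like that of 2 markers were sought among 10947 genes with a mean of at least 5 CPM, by Pearson's r of log2 CPM over the 9 libraries, as a description. For Ly6g, whose counts were low, the 5 most alike were Tmem39b (r = 0.97), Rnf113a2 (0.958), Ccnl2 (0.956), Myo1d (0.952) and Ccnl1 (0.946). For Ngp they were Zfp113 (0.863), Klf2 (0.862), Mepce (0.856), G0s2 (0.82) and Hhat (0.812). The 9 libraries fall into 3 groups and differ in depth, which these values share.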

How the data were processed

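RNA of whole omenta was sequenced in pairs of reads from poly(A)-selected libraries that keep the strand, per the labels' protocols. The submitters' processing notes name the build mm39 and the tools STAR 2.7.9, featureCounts and limma, with no role for each. The annotation and the use of strand in counting were not given in the sources used here. Deposited by the authors were whole-number counts of 55359 genes and a log2 CPM table of 18833 genes, which equals log2 CPM from library totals with no further scaling. The files give no coordinates. Identifiers were matched to symbols of GENCODE M21 (52083 named), and promoters are those of RefSeq on GRCm38.p6, an older build than the one the submitters name.

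The deposited counts entered edgeR 4.0.16 (R 4.3.3): TMM scaling, filterByExpr on the groups (17123 genes), and 1 robust quasi-likelihood fit of 9 libraries (3 a group) without covariates. Tests were two-sided with Benjamini-Hochberg adjustment over all genes tested and a threshold of 0.05. The SE was taken as the size of the log2 fold change over the root of the F statistic. CPM are TMM-scaled, and log2 CPM has a prior count of 2. The labels number the libraries as separate mice, 3 a group, for which a rank test could not go below 0.1. No pair of libraries was treated as a repeat (smallest chi-square per degree of freedom 7.35). On counts simulated from these libraries with 200 genes changed, the fit was tested before use.

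The 10 markers and the lists were chosen with earlier results of these data known, so no test over the markers as a set was made. Named are all 10 markers, up to 4 genes of each other list by the smallest p, and Mpo, Elane, Prtn3, Ctsg, Cxcr2, Csf3r, Csf3, Cebpe and Tyrobp. Il17a, Tlr4, Ager, Siglecf and Ccr3, named outside this rule, were chosen after their values were seen. The 18 alternatives were DESeq2 1.42.0 (its Wald test, or its size factors within edgeR), limma 3.58.1 (voom, and on the deposited log2 values), filters on low counts (none, or 1 CPM in 6 libraries), only the groups compared, a block for the mouse number, omission of each library, and the omission of IP 4 and IV 1. Counting intervals cover counting error only.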

Additional observations from a re-analysis of the deposited data

Results flagged for a closer look

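The effect of treatment differed between the routes, by the test of IP against IV, for 2 of the 10 markers: the log2 difference was 3.35 for Lcn2 and 2.43 for Trem1, both higher in IP in 3 of 3 libraries. The same test called 5.93% of all genes tested higher in IP. It called 6 of the 14 other genes of mature neutrophils, all higher in IP. The log2 differences of 4 of the 6 were 4.22 for Cxcr2, 3.21 for Asprv1, 1.45 for Mxd1 and 1.30 for Hdc. It also called 3 of 6 transcription factors, among them Cebpb (1.67) and Gfi1 (1.54), and 5 of the 8 recruiting signals tested, among them Cxcl3 (5.11) and Csf3 (3.08). Of the genes named here, Cxcl3 and Cebpb were not called without a low count filter, Gfi1 and Csf3 were not called without IP 4 and IV 1, and Trem1 and Csf3 were not called without IP 2. Csf3 passed the low count filter only through treated libraries. Cxcl3 had 456, 189 and 158 counts in IP 2, IP 3 and IP 4 and 19, 0 and 1 in IV 1, IV 2 and IV 4.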

How the results depend on the processing

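The number of the 10 markers called for IP against PBS was 7, and 4 without a low count filter and 3 to 7 when a library was left out (3 without PBS 1 or PBS 2). For IV against PBS it was 1, and 2 with DESeq2 size factors, 5 by DESeq2's Wald test, 0 by limma voom, 0 without a filter, 2 with the filter of 1 CPM in 6 libraries, and 0 to 4 when a library was left out. For IP against IV it was 2, and 1 to 2 when a library was left out. Genes called numbered 5626 for IP against PBS (3956 to 6569 when a library was left out). For IV against PBS they numbered 2753, and 1210 with only the groups compared and 980 to 4580 when a library was left out. For IP against IV they numbered 1780, and 2765 by DESeq2's Wald test and 673 to 2873 when a library was left out. Without IP 4 and IV 1, chosen after seeing the data, 1647 genes were called for IV against PBS and 903 for IP against IV. The immature minus mature value of IP was -2.02 without Lcn2 in the set, and ran from -1.09 to 0.67 when a library was left out.

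No label says that equal mouse numbers pair the samples. Deviations from the group mean correlated at -0.399 to 0.1 between libraries with equal numbers. Between libraries with unequal numbers they correlated at -0.336 to 0.272. These ranges overlap, so the values cannot decide whether the numbers pair the samples. With the replicate number as a block, 3 markers were called for IP against PBS and 0 for IV against PBS, and 1134 genes for IP against IV.

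Fold changes that the edgeR fit of the 9 libraries did not call changed sign in some settings. For IP against PBS, leaving out a library gave log2 fold changes of -1.81 to 1.92 for Camp, -3.97 to 1.93 for Ngp, -7.40 to 1.10 for Mpo, -2.03 to 2.15 for Elane and -5.34 to 0.12 for Ctsg. By limma voom and limma on the log2 table they were -1.06 and -1.06 for Ngp, -2.63 and -2.83 for Mpo, and -0.08 and -0.35 for Elane. Mpo did pass the threshold in some of the settings, with a smallest adjusted p over the settings of 0.0111. For IP against IV the smallest was 0.00873 for Mpo, 0.0236 for Ctsg and 0.0414 for Elane. For IV against PBS, leaving out a library gave -1.06 to 0.35 for Trem1, -0.30 to 0.51 for Cxcr2 and -2.98 to 1.46 for Cxcl3, the last at -0.59 by limma voom and -0.47 on the log2 table. For IP against IV it gave -0.48 to 1.60 for Retnlg, -0.42 to 0.91 for S100a8, -0.51 to 0.95 for S100a9, -2.18 to 0.15 for Ms4a3 and -0.95 to 0.36 for Prtn3, and limma voom gave 0.16 for Hbb-bs. Without IP 4 and IV 1 the signs also turned for Ctsg (0.12, IP against PBS), Cxcl3 (-2.97) and Cxcr2 (-0.25) for IV against PBS, and Elane (0.39), Ly6g (-0.002), Ms4a3 (0.41), Prtn3 (0.47) and Retnlg (-0.57) for IP against IV. The causes were not tested. Low counts limit Ly6g, Csf3 and the azurophil genes, most in IV 2, the shallowest library.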
